A study of Mus musculus with 18 samples.

Results

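Genes of ion and water transport in the retinal pigment epithelium (RPE) were followed in both eyes of 9 *rd1* mice. There were 10: Best1, Kcnj13, Clcn2, Cftr, Aqp1, Slc12a2, Slc4a5, Car14, Atp1b1 and Trpm3. They were taken by name as channels, transporters and enzymes of this epithelium, and all 10 were found among the 47729 genes of the count table and passed the filter on low counts. The mice, labelled *rd1* (a mutation of Pde6b, on the FVB/N background), were killed at P40, that is at postnatal day 40. The study's methods state fewer pairs of *rd1* mice at this age, and the sources used here do not explain the difference. One eye of each mouse received subretinal AAV Best1 GFP alone and is called control. The fellow eye received AAV Best1 Nrf2 together with AAV Best1 GFP and is called Best1-Nrf2. Both vectors use a human Best1 promoter fragment, so the treated eyes received an additional vector with that promoter as well as the human Nrf2 cDNA, and the vectors were packaged in different capsids. Transgene, added promoter copies, vector load and capsid therefore cannot be told apart in this comparison, and no eye was left uninjected.

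The RPE is the pigmented monolayer between the photoreceptors and the choroid, and it moves chloride and potassium, and with them water, out of the subretinal space. The sodium-potassium pump and the cotransporter NKCC1 of its apical side load the cell with potassium and chloride, the apical potassium channel Kir7.1 returns potassium, and chloride leaves across the basolateral side through channels. Bestrophin 1 sits in that basolateral membrane, and mutations in BEST1 and KCNJ13 cause inherited retinal disease. Bicarbonate cotransporters and carbonic anhydrases carry the acid and carbon dioxide load of the neighbouring photoreceptors.

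The sequence before the annotated start is shown for 4 of the genes, because both vectors carry a Best1 promoter and because Cftr, Best1 and Kcnj13 had the 3 smallest p-values of the 10. Car14 was added because it was the only other gene with a match to a motif searched. Each is the 250 bases before the RefSeq start, 5′ to 3′ on the strand of the gene, from assembly GRCm38.p6. Capitals mark a match to TAATCC, the core bound by OTX factors, or to CATGTG, an E-box of the kind bound by MITF, in either orientation. The Best1 window lies on the minus strand at chr19:10001634-10001883, the Kcnj13 window on the minus strand at chr1:87394730-87394979, the Cftr window on the plus strand at chr6:18170437-18170686 and the Car14 window on the minus strand at chr3:95904686-95904935.
Best1: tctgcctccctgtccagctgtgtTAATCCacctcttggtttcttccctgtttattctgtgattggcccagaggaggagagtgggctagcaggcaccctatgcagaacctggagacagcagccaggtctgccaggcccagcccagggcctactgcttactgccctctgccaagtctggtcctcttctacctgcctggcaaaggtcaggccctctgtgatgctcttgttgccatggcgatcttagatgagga
Kcnj13: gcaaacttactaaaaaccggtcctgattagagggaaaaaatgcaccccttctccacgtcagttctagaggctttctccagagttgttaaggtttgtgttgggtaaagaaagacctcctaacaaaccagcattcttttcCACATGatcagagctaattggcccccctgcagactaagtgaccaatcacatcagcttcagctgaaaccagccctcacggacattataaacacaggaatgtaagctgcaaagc
Cftr: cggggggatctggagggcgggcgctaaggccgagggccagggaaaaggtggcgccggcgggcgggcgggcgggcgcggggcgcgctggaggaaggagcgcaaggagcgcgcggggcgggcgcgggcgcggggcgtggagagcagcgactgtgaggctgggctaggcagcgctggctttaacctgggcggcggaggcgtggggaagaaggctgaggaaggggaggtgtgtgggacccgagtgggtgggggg
Car14: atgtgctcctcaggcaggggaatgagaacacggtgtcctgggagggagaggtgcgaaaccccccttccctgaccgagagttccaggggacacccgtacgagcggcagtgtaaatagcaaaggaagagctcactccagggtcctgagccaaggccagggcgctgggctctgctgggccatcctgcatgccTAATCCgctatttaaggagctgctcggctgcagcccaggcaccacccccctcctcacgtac

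In the Best1 window TAATCC began at position -227 relative to the start, and in the Car14 window at -61. In the Kcnj13 window the E-box stood as its reverse complement, CACATG, from position -112. The Cftr window held neither and was the richest in G and C of the 4, at 76.4% against 45.2% for Kcnj13. In all, 9 of the 10 genes had an entry, Slc12a2 being without one, and Trpm3 had 2 entries, which made 10 windows. TAATCC occurred in 2 of those 10 windows and in 6.25% of 32851 promoter windows of the same length, and CATGTG in 1 and in 12.3%. The antioxidant response element core TGACNNNGC, the kind of sequence that Nrf2 binds, was in 0 of the 10 windows and in 10.2% of all windows, and the other E-box, CACGTG, was in 0 and in 6.02%. Both strands were searched for each motif, and these are matches of letters within 250 bases only.

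Libraries held 18956748 to 44054836 counts in control eyes and 32839893 to 49598700 in Best1-Nrf2 eyes. Levels are given as CPM, counts scaled to a common library size by TMM, and a difference is the log2 fold change of the Best1-Nrf2 eye against the fellow control eye with its standard error (SE) from edgeR. Delivery was checked on Nfe2l2, the mouse gene for Nrf2: it stood at 89.7 ± 17.8 CPM without and 453.5 ± 146.8 CPM with the Nrf2 vector (SD, n = 9), higher in 9 of 9 mice, with no overlap between the groups. How far the human cDNA adds to those counts was not tested. The RPE marker Rpe65, a visual cycle enzyme, was at 2021 ± 846 CPM in control eyes, above 99.8% of the genes tested. Its level in Best1-Nrf2 eyes was 296.8 ± 176.7 CPM, a log2 change of -2.81 (adjusted p = 2.41e-04). By the same test 7 of the 22 RPE markers fell and none rose, at a median log2 change of -0.49, far from that of Rpe65. Summed RPE markers overlapped between the groups, at 15222 to 73278 CPM in control eyes and 18895 to 82790 CPM in Best1-Nrf2 eyes. Cone markers fell in 9 of 10 cases, at a median log2 change of -3.26, and macrophage and microglia markers rose in 10 of 16, at a median of 1.65. The score of the 10 fibroblast and sclera markers was higher in 9 of 9 mice, with 1 marker up and 1 down by the test and a median of 0.62, and that of the rod markers lower in 8 of 9, with 1 of 7 down. Summed rod markers were at 25.3 to 289.4 CPM in control eyes. These markers move with the treatment beside every value below, and their part in the results was not tested. Fewer RPE cells, less RNA per RPE cell and changes of single genes cannot be told apart in bulk RNA, and their parts were not tested.

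A pair of libraries stood apart. The control eye of mouse 8 had the lowest summed RPE marker level of the control eyes, 15222 CPM against a median of 46823 CPM, and it was the lowest control eye for 8 of the 10 genes, all but Cftr and Slc12a2. Mouse 6 had, in its Best1-Nrf2 eye, the highest summed level of inner retina markers, 2130 CPM against a median of 217.0 CPM, and the lowest summed level of ciliary epithelium markers, 25.6 CPM against a median of 113.9 CPM. The same eye had the highest summed cone and rod markers of its group, 534.2 and 87.4 CPM against medians of 62.7 and 18.6 CPM. Mouse 6 alone had cone and rod scores that did not fall, with differences of 0.16 and 0.39. Its Best1-Nrf2 eye also had the lowest Nfe2l2 of that group, 275.2 CPM, and the part of these traits in the results was not tested. Estimates without those mice are therefore given where they changed a call or a direction. The sequencing run of each library, of the 2 that the labels mention, was not given in the sources used here, so no value within a run could be computed.

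Of the 10 genes, Cftr rose with Best1-Nrf2 and none fell by edgeR's quasi-likelihood test at an adjusted p under 0.05. Among all 18958 genes tested 806 passed, which is 4.25%, with 3.12% higher and 1.13% lower. Higher calls made up 73.4% of those 806, and 97.5% when libraries were scaled by the RPE markers, a scaling that moved the median of all genes up by 0.63. The mean log2 level of the RPE markers used for it was itself lower in the Best1-Nrf2 eye in 8 of 9 mice. Rises that pass under that scaling are therefore not separate support. At an unadjusted p under 0.05 there were 3 of the 10, Cftr, Best1 and Kcnj13, against 12.8% of all genes. The same 3 passed the adjusted threshold with DESeq2, which called 7.8% of all genes, and with limma voom with sample weights, which called 7.52%. None of the 10 had groups whose CPM did not overlap, as 1.17% of all genes did, and 2, Cftr and Best1, were higher in 9 of 9 mice, as were 3.12% of all genes. The median log2 change of the 10 was -0.19 and that of all genes tested -0.025.

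**Figure D1:**
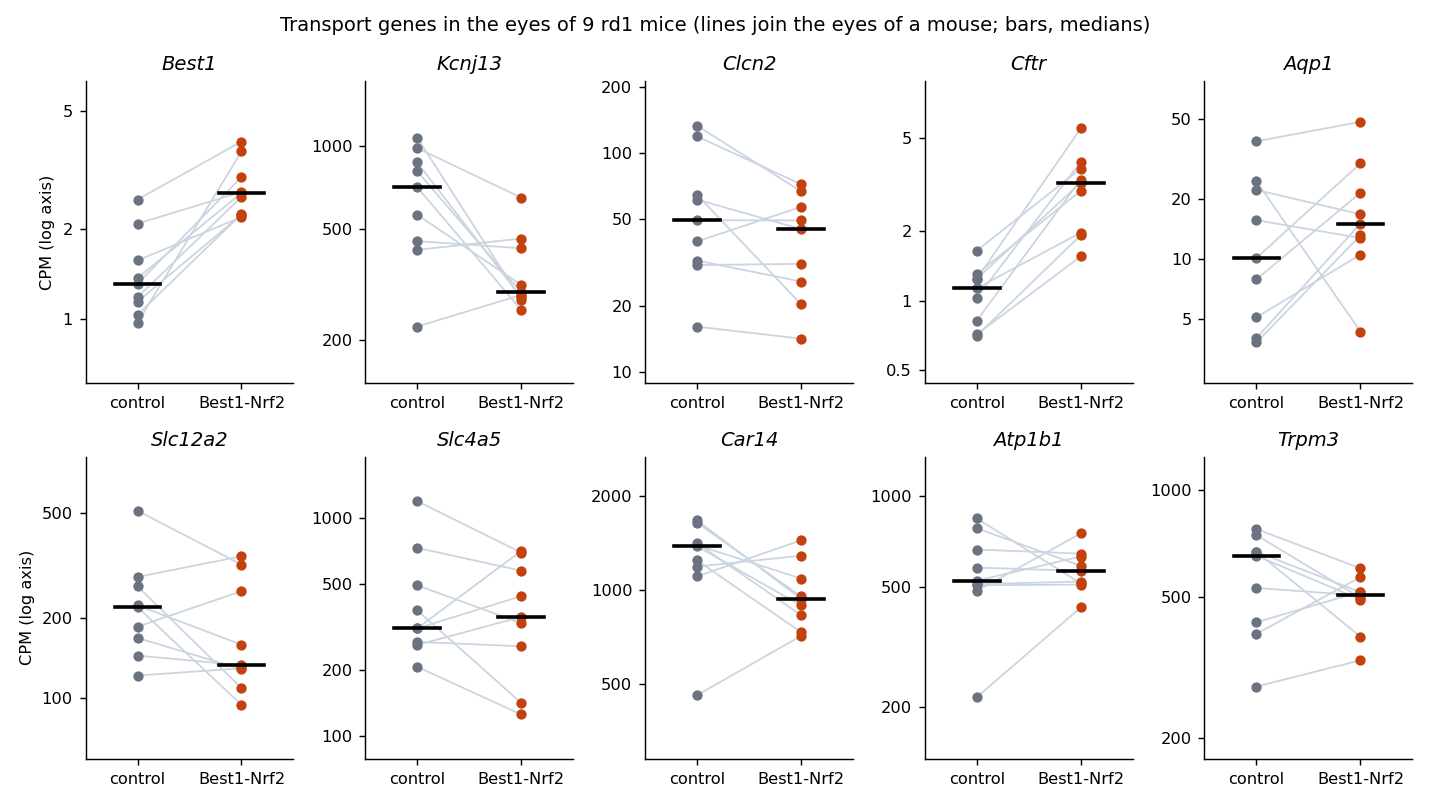
Level of each of the 10 genes in CPM, on a log axis, in the control and the Best1-Nrf2 eye of 9 mice; points are eyes, grey lines join the eyes of a mouse and black bars are medians. For Best1 and Cftr every line rises, to medians of 2.65 and 3.22 CPM, and the lowest control point for Kcnj13, Car14, Atp1b1 and Trpm3 is the eye of mouse 8.

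Among the chloride channels, Cftr and Best1 had the largest estimates of the 10 genes. Cftr encodes the cyclic AMP-regulated chloride and bicarbonate channel that is mutated in cystic fibrosis, and it lies on the plus strand of chromosome 6 at positions 18170687 to 18322768 (GRCm38). Its level in control eyes was lowest at 0.705, median 1.13 and highest at 1.64 CPM. In Best1-Nrf2 eyes it was lowest at 1.55, median 3.22 and highest at 5.51 CPM. The groups touched only at that edge, with 8 of 9 Best1-Nrf2 eyes above the highest control eye and 8 of 9 control eyes below the lowest Best1-Nrf2 eye. The log2 change was 1.46 (SE 0.26, adjusted p = 0.00569), and the difference within a mouse ran from 0.76 to 2.10. Cftr was a rare transcript throughout: 18 to 60 counts per library in control eyes, the lowest with a 95% exact Poisson interval of 10.7 to 28.4, and 60 to 243 counts in Best1-Nrf2 eyes. It was above 22.2% of the genes tested in control eyes. Without any 1 mouse the adjusted p was 0.00962 to 0.0216, and with the photoreceptor marker score as a covariate, which itself moves with the treatment, the estimate was 1.20 and the adjusted p 0.345. Scaling by the RPE markers, which raised the estimates of genes at large, gave 2.09 (adjusted p = 0.00101).

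Best1, for bestrophin 1, is the gene whose human promoter drives both vectors, and the mouse gene lies on the minus strand of chromosome 19 at positions 9985174 to 10001633. Its level in control eyes was lowest at 0.969, median 1.31 and highest at 2.52 CPM. In Best1-Nrf2 eyes it was lowest at 2.2, median 2.65 and highest at 3.95 CPM. All 9 mice had more in the Best1-Nrf2 eye, and 8 of 9 control eyes were below the lowest Best1-Nrf2 eye. The log2 change of 0.97 (SE 0.25) had an adjusted p of 0.0555 and so missed the threshold by edgeR. It passed without mouse 6, whose eyes differed least, at 0.35 (estimate 1.04, adjusted p = 0.0451), with DESeq2 (adjusted p = 4.38e-04) with voom (adjusted p = 0.0155) and without the block for mouse (adjusted p = 0.0338). It also passed with genes of at least 10 counts in every library (adjusted p = 0.0188). Under the RPE marker scaling the estimate was 1.6 (adjusted p = 0.00467), but that scaling raised the estimates of genes at large and is not separate support. With any other mouse left out the adjusted p was 0.0668 to 0.141, and with the photoreceptor covariate the estimate was 0.66 (adjusted p = 0.615). Best1 was also rare in these eyecups, with 17 to 100 counts per library in control eyes and a 95% exact Poisson interval of 9.9 to 27.2 for the lowest. Whether vector transcripts added to its counts was not tested.

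Clcn2 encodes the chloride channel ClC-2, whose loss in mice leads to degeneration of photoreceptors, and lies on chromosome 16 at positions 20702964 to 20717746. Control eyes held 16.1 to 133.7 CPM with a median of 49.4, and Best1-Nrf2 eyes 14.2 to 72.2 CPM with a median of 45.0. The groups overlapped, and the highest control eyes lay above every Best1-Nrf2 eye. Its log2 change came to -0.42 (SE 0.21, adjusted p = 0.449), with 7 of 9 mice lower in the Best1-Nrf2 eye. It was 0.20 when libraries were scaled by the RPE markers and -1.12 with the photoreceptor covariate (adjusted p = 0.231).

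Kcnj13 encodes Kir7.1, the inward rectifier potassium channel of the apical RPE membrane, and lies on the minus strand of chromosome 1 at positions 87386363 to 87394729. Its level in control eyes was lowest at 223.6, median 709.2 and highest at 1069 CPM. In Best1-Nrf2 eyes it was lowest at 256.4, median 296.6 and highest at 650.7 CPM. In 7 of 9 mice there was less in the Best1-Nrf2 eye, with -1.94 as the lowest log2 difference, and mice 6 and 8 had slightly more, with differences of 0.13 and 0.38. The log2 change was -0.83 (SE 0.27, adjusted p = 0.147) and did not pass by edgeR. Without mice 6 and 8 it was -1.14 (adjusted p = 0.0221), an omission chosen after the values were seen, and it passed with DESeq2 (adjusted p = 0.0343) and with voom (adjusted p = 0.0141). With the photoreceptor score as a covariate the estimate was 0.32 (adjusted p = 0.786), and with libraries scaled by the RPE markers it was -0.21.

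Kcnj13 lies on the opposite strand within Gigyf2, and 623 of its exon bases, 49.1%, are also exon of Gigyf2. The library kit does not mark strand, so reads from that stretch cannot be told apart. Gigyf2 was at 90.7 ± 34.2 CPM without and 69.1 ± 61.2 CPM with the Nrf2 vector (SD, n = 9), lower in 7 of 9 mice, with a log2 change of -0.59 (adjusted p = 0.337). Its estimate, like that of Kcnj13, was below 0 without passing. Car14 shares 445 exon bases with Aph1a and Atp1b1 shares 575 with Nme7 in the same way, 17.5% and 18.7% of their own exon bases, and those partners had log2 changes of -0.12 and 0.074.

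**Figure D2:**
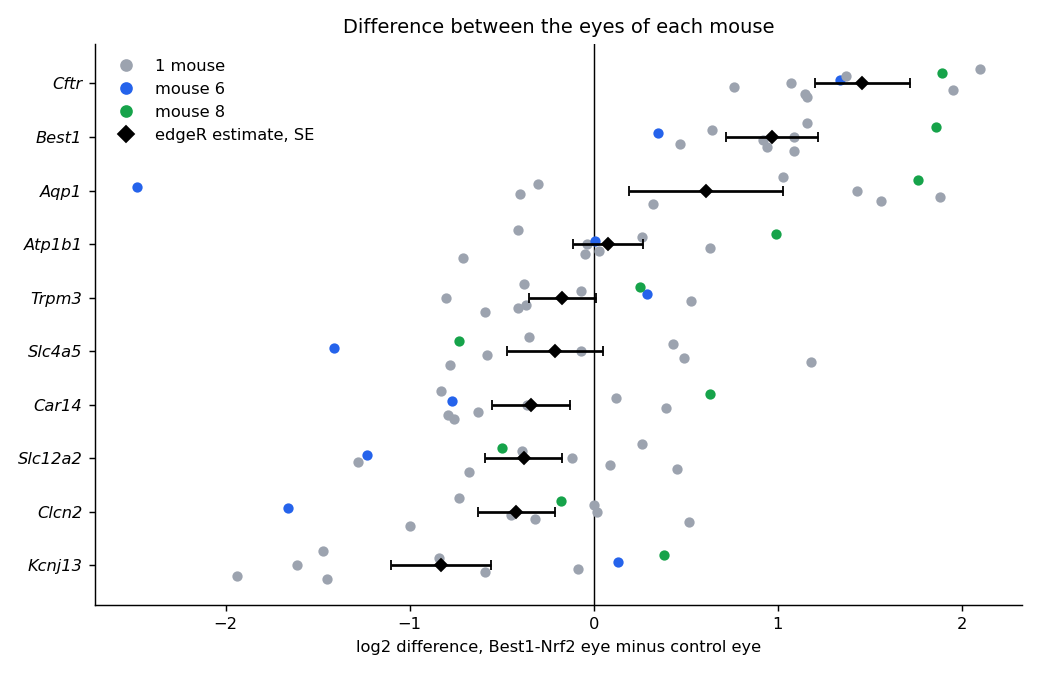
Log2 difference in level, Best1-Nrf2 eye minus control eye, for each of the 10 genes; points are mice, with mice 6 and 8 in colour, and diamonds with bars are the edgeR log2 fold change and its SE. Cftr and Best1 lie wholly to the right of 0, mouse 6 is the lowest point for Aqp1, Slc4a5 and Clcn2, and the points of mouse 8 for Kcnj13, Car14 and Atp1b1 are at 0.38, 0.63 and 0.99.

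The cotransporter genes Slc12a2 and Slc4a5 showed wide spread and no call. Slc12a2 encodes NKCC1, the sodium-potassium-chloride cotransporter. Its level was 121.4 to 509.4 CPM in control eyes, median 220.2, and 94.0 to 342.7 CPM in Best1-Nrf2 eyes, median 132.8. For Slc12a2 the log2 change was -0.38 (SE 0.21, adjusted p = 0.518), with 6 of 9 mice lower, 0.24 under the RPE marker scaling and -1.30 with the photoreceptor covariate (adjusted p = 0.145). Slc4a5 encodes NBCe2, a sodium bicarbonate cotransporter, on chromosome 6 at positions 83219828 to 83304945. Control eyes held 207.3 to 1196 CPM of it, median 311.4, and Best1-Nrf2 eyes 125.2 to 706.2 CPM, median 351.4. For Slc4a5 it was -0.21 (SE 0.26, adjusted p = 0.853), with 6 of 9 mice lower. Scaling by the RPE markers gave 0.41, leaving out mice 6 and 8 gave 0.043, and the photoreceptor covariate gave -1.15 (adjusted p = 0.274).

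Car14 encodes a membrane carbonic anhydrase that faces the outside of the cell, on chromosome 3 at positions 95897768 to 95904691. Its level in control eyes was lowest at 458.8, median 1377 and highest at 1666 CPM. In Best1-Nrf2 eyes it was lowest at 710.3, median 935.2 and highest at 1439 CPM. The control eye of mouse 8 lay far below the other control eyes, the next of which was at 1102 CPM. For Car14 the change on the log2 scale was -0.34 (SE 0.21, adjusted p = 0.598), with 6 of 9 mice lower, and 0.29 under the RPE marker scaling.

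Atp1b1 encodes the beta 1 subunit of the sodium-potassium pump, on chromosome 1 at positions 164437109 to 164458355. Control eyes held 215.9 to 843.8 CPM, median 525.2, and Best1-Nrf2 eyes 428.0 to 752.3 CPM, median 565.6. The estimate was the closest to 0 of the 10, a log2 change of 0.078 (SE 0.19, adjusted p = 0.941), with 5 of 9 mice higher. Without mouse 8 it was -0.031, and under the RPE marker scaling, which raised the estimates of genes at large, it was 0.70 (adjusted p = 0.00937).

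Aqp1 encodes a water channel that is also abundant in red blood cells, endothelium and the ciliary epithelium, and lies on chromosome 6 at positions 55336432 to 55348555. Its level was 3.82 to 38.7 CPM in control eyes, median 10.1, and 4.32 to 48.4 CPM in Best1-Nrf2 eyes, median 15. It was the most variable of the 10 among control eyes, with a coefficient of variation of 80.8%. The log2 change was 0.61 (SE 0.42, adjusted p = 0.655), with 6 of 9 mice higher, and -1.56 with the photoreceptor covariate (adjusted p = 0.309). It was 1.23 under the RPE marker scaling (adjusted p = 0.0611) and 0.92 without mouse 6 (adjusted p = 0.119). The difference in mouse 6 was -2.48, the lowest of any mouse, and summed ciliary epithelium markers were 122.3 CPM in that mouse's control eye and 25.6 CPM in its Best1-Nrf2 eye. Between the same eyes the summed red blood cell markers were 294.7 and 3646 CPM and the endothelium markers 101.0 and 233.4 CPM, and the part of these cells in the Aqp1 values was not tested.

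Trpm3 encodes a calcium-permeable TRP channel and is the host gene of the microRNA miR-204, on chromosome 19 at positions 22139046 to 22995410. Control eyes held 279.4 to 777.0 CPM, median 653.4, and Best1-Nrf2 eyes 331.5 to 602.2 CPM, median 505.2. The Best1-Nrf2 eyes all lay inside the range of the control eyes. The log2 change was -0.17 (SE 0.18, adjusted p = 0.81), with 6 of 9 mice lower, 0.45 under the RPE marker scaling and 0.33 with the photoreceptor covariate.

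**Figure D3:**
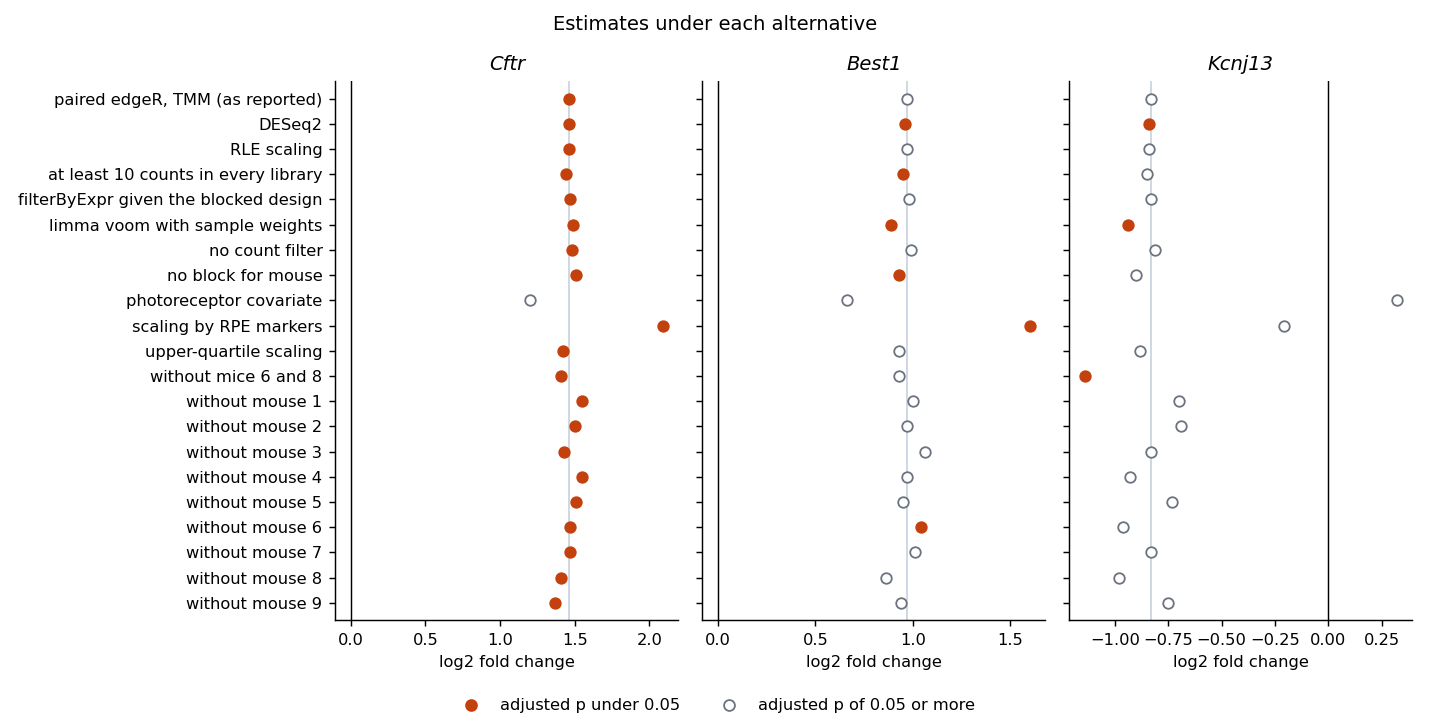
Log2 fold change of Cftr, Best1 and Kcnj13 under the reported fit and each alternative; filled points have an adjusted p under 0.05 and the pale line marks the reported estimate. Cftr is filled in every setting but the photoreceptor covariate, and Kcnj13 is right of 0 in that setting alone.

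Levels were compared between genes per kilobase of annotated exon, in control eyes. Kcnj13 and Car14 led, with medians of 558.4 and 541.6 CPM per kb, followed by Atp1b1 at 170.5, Slc4a5 at 53.6, Trpm3 at 26.7, Slc12a2 at 20.2, Clcn2 at 8.2, Aqp1 at 3.85, Best1 at 0.507 and Cftr at 0.146 CPM per kb. The span from the potassium channel and the carbonic anhydrase to the rarest chloride channels is drawn in the plot of levels per kilobase. Neighbours in that order were compared by a 2-sided exact sign-flip permutation test over the 9 eyes. In 7 of the 9 neighbouring pairs the first gene was higher in 9 of 9 eyes (exact p = 0.00391, the smallest this design gives, adjusted p = 0.00502). Kcnj13 and Car14 did not differ beyond their spread (mean log2 difference 0.029 ± 0.35, SD, exact permutation p = 0.812) by this length, nor did Trpm3 and Slc12a2 (0.17 ± 0.81, exact permutation p = 0.551). The comparison of Kcnj13 and Car14 rests on the length used. With the length of the longest transcript in place of all exons, Car14 came before Kcnj13, at medians of 805.8 and 558.4 CPM per kb, and was higher in 9 of 9 eyes (mean log2 difference 0.54 ± 0.35, SD, exact permutation p = 0.00391, adjusted p = 0.00502). The other 8 genes kept their rank.

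**Figure D4:**
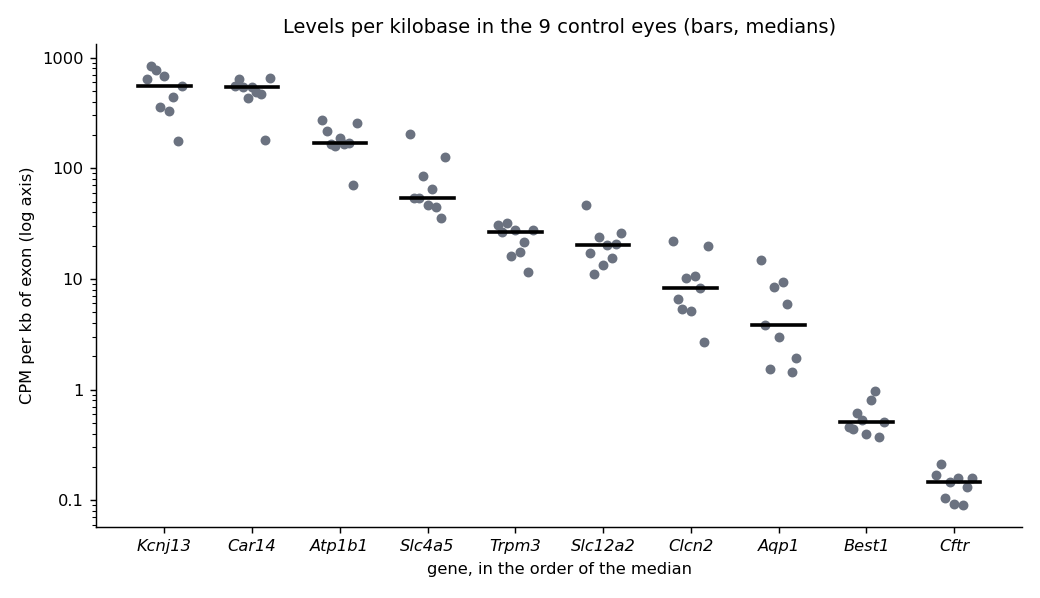
Level of each gene in the 9 control eyes, in CPM per kilobase of exon on a log axis, ordered by the median, which is drawn as a bar. Kcnj13 and Car14 overlap at the top, at medians of 558.4 and 541.6, and Best1 and Cftr lie below all other genes, at 0.507 and 0.146.

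Across control eyes, the levels of Atp1b1, Car14, Trpm3, Kcnj13 and Clcn2 were related to the RPE marker score, the mean log2 CPM of the 22 RPE markers, none of which is among the 10 genes. In all, 10 relations were computed over 9 eyes with exact permutation tests, and 5 passed after adjustment. For Atp1b1 Pearson's r was 0.98 and Spearman's rho 0.87 (exact permutation p = 1.16e-04 and 0.00451, adjusted p of r = 0.00116). For Car14 r was 0.97 and rho 0.92 (exact permutation p = 5.87e-04 and 0.00131, adjusted p of r = 0.00293). Both held without the 2 eyes farthest from the median score, at r of 0.90 for Atp1b1 and 0.98 for Car14. For Trpm3 r was 0.88 and rho 0.77 (exact permutation p = 0.00152 and 0.0214, adjusted p of r = 0.00505), and r was 0.70 without those 2 eyes. For Kcnj13 r was 0.87 and rho 0.68 (exact permutation p = 0.00446 and 0.0503, adjusted p of r = 0.0112), and r was 0.71 without them. For Clcn2 r was 0.74 and rho 0.55 (exact permutation p = 0.0178 and 0.133, adjusted p of r = 0.0355), and at 0.20 without those 2 eyes that relation rested on them. Best1, Cftr and Aqp1 had r of 0.11, 0.28 and 0.36, and -0.61, 0.49 and -0.71 without those 2 eyes, so the sign for Best1 and Aqp1 rested on them. The abundant Slc4a5 and Slc12a2 did not pass either, with r of 0.65 and rho of 0.73 for Slc4a5 (exact permutation p = 0.065 and 0.0311, adjusted p of r = 0.108) and r of 0.21 and rho of 0.28 for Slc12a2 (exact permutation p = 0.548 and 0.463, adjusted p of r = 0.609).

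In Best1-Nrf2 eyes 1 of the 10 relations passed, that of Trpm3, with r of 0.86 and rho of 0.72 (exact permutation p = 0.00286 and 0.0369, adjusted p of r = 0.0286). The r of Car14, Atp1b1 and Kcnj13 there were 0.40, 0.43 and 0.65. Without the 2 Best1-Nrf2 eyes farthest from the median score they were 0.55, 0.62 and 0.16, and that of Trpm3 was 0.67. The difference in r between the groups was not tested. Of the 45 pairs among the 10 genes, 8 passed in control eyes and 2 in Best1-Nrf2 eyes, and those 2 passed in both. Clcn2 and Slc4a5 had r of 0.91 and rho of 0.88 in control eyes (exact permutation p = 2.29e-04 and 0.00308, adjusted p of r = 0.008) and r of 0.88 and rho of 0.83 in Best1-Nrf2 eyes (exact permutation p = 0.0019 and 0.00827, adjusted p of r = 0.0428). Car14 and Atp1b1 had r of 0.94 and rho of 0.90 in control eyes (exact permutation p = 0.00235 and 0.00203, adjusted p of r = 0.0241) and r of 0.88 and rho of 0.92 in Best1-Nrf2 eyes (exact permutation p = 0.00135 and 0.00131, adjusted p of r = 0.0428). Without the 2 farthest eyes r was 0.88 and 0.66 for the first pair and 0.68 and 0.77 for the other. All values of an eye share its library and the share of RPE in it.

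**Figure D5:**
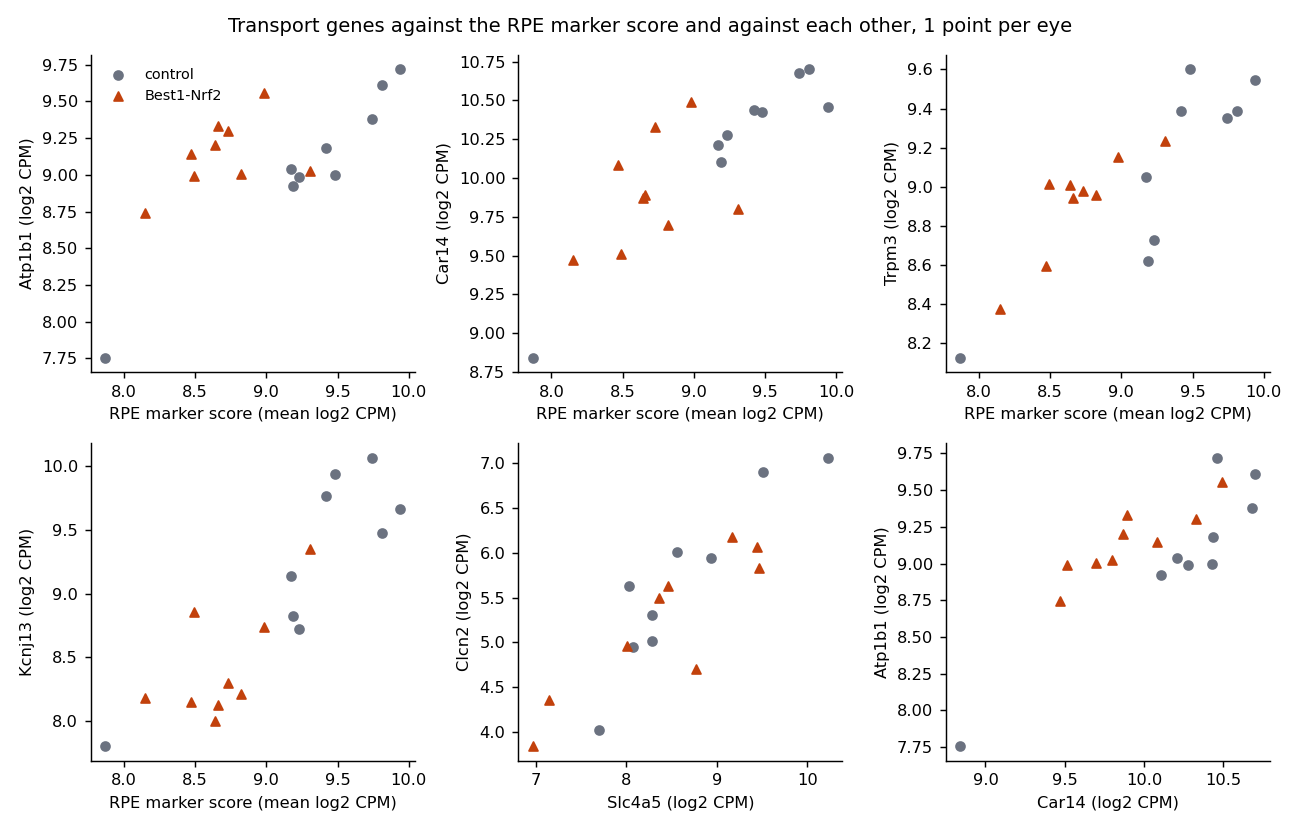
Level of 4 genes against the RPE marker score, and of 2 pairs of genes against each other, all in log2 CPM; each point is an eye, circles control and triangles Best1-Nrf2. The control point at the lower left, at a score of 7.87, is mouse 8, and in the Best1-Nrf2 eyes the points for Car14 and Atp1b1 scatter more widely about the score (r of 0.40 and 0.43).

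Related transport genes were read from 8 lists by function, with 163 genes of which 136 passed the filter. Of these 1 rose and 3 fell, 2.94% of those tested, beside 4.25% of all genes, and 18 had an unadjusted p under 0.05, while DESeq2 called 11 and voom 12. By these criteria the shares of all genes tested were 12.8%, 7.8% and 7.52%. The median log2 change of the 136 genes was -0.084. Slc26a1, a sulfate and anion exchanger, stood at 0.605 ± 0.294 CPM without and 4.12 ± 1.85 CPM with the Nrf2 vector (SD, n = 9). Slc26a1 was rare, with 1 to 50 counts per library in control eyes and 35 to 314 in Best1-Nrf2 eyes. It rose by a log2 change of 2.81 (SE 0.31, adjusted p = 2.31e-04), and all 9 mice had more with the vector. It was the 1 edgeR call among 21 genes of bicarbonate and proton exchange, of which DESeq2 and voom also each called 1.

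Of 23 potassium channel genes tested, edgeR called 2, both lower, where 1.13% of all genes were called lower. DESeq2 called 4 of them and voom 3, beside 7.8% and 7.52% of all genes. Kcnj8, which encodes the Kir6.1 subunit of ATP-sensitive channels and is common in pericytes, stood at 55.0 ± 26.1 CPM without and 13.2 ± 2.68 CPM with the Nrf2 vector (SD, n = 9), and its log2 change was -1.92 (SE 0.23, adjusted p = 3.75e-04), with all 9 mice lower. Kcne2, an accessory subunit of potassium channels, was at 26.7 ± 16.7 and 6.29 ± 6.32 CPM, with a log2 change of -2.29 (SE 0.46, adjusted p = 0.0128) and 8 of 9 mice lower, mouse 6 being the exception. Wnk4, a kinase that regulates cation-chloride cotransporters, was the 1 edgeR call among 10 genes of that list, of which DESeq2 and voom each called 2. It stood at 44.4 ± 23.4 and 21.8 ± 12.2 CPM, with a log2 change of -1.14 (SE 0.24, adjusted p = 0.0185) and 8 of 9 mice lower.

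The other 5 lists had no call by edgeR, which called 4.25% of all genes; the shares of all genes for the other criteria were 12.8% at an unadjusted p under 0.05, 7.8% by DESeq2 and 7.52% by voom. Of 21 chloride channel genes 2 had an unadjusted p under 0.05 and DESeq2 and voom each called 1, at a median log2 change of 0.029. Of 12 carbonic anhydrases and their relatives 4 had an unadjusted p under 0.05, DESeq2 called 2 and voom 3, at a median of -0.20. Of 15 genes of the sodium-potassium pump 2 had an unadjusted p under 0.05, DESeq2 called 0 and voom 1, at a median of -0.036. Of 27 TRP and calcium channels 1 had an unadjusted p under 0.05 and DESeq2 and voom each called 1, at a median of 0.012. Of 7 aquaporins 0 had an unadjusted p under 0.05 and neither tool called any, at a median of -0.47.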

How the data were processed

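Poly(A) RNA of eyecups freed of retina was amplified with a SMARTer Ultra Low v4 kit, which marks neither strand nor molecule, and sequenced from both eyes of 9 mice. The deposited table holds whole numbers per gene, read here as rounded estimated counts, since some near-identical genes share a value in every library. The labels name Salmon 0.8.1 and the methods featureCounts as well, on mm10 with Ensembl genes; which made the table is not given in the sources used here. edgeR 4.0.16 in R 4.3.3 was run on all 18958 genes passing filterByExpr (99.9% of counts), with TMM scaling and mouse as a block, and p-values were adjusted by Benjamini-Hochberg. The labels give both eyes of a mouse the same individual number, which is the pairing; the correlation of paired deviations had a median of -0.000949 and ranged from -0.373 to 0.644. The smallest chi-square per degree of freedom between libraries of a group was 49.5, so none was a repeat. CPM below about 1 rest on few counts, and Poisson intervals cover counting error only. Alternatives were limma 3.58.1, DESeq2 1.42.0, other scalings, filters and covariates, and each mouse left out. The script was tested on simulated data. Positions and exon lengths come from GENCODE M21 (GRCm38), and promoters from RefSeq. All 10 genes are named, Nfe2l2 and Rpe65 as checks, and of the transport lists each gene called. The genes and lists were chosen with earlier results of these data known. The study's methods state 4 pairs of *rd1* mice at this age, and 5 of CD1 mice; all 9 pairs used here are labelled *rd1*.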

Additional observations from a re-analysis of the deposited data

Results flagged for a closer look

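Among the 10 genes, the highest and lowest eye of each group of 9 were screened for a gap to the next eye that was large against the range of the group. Of 20 groups, 2 had such an eye, where chance gives about 1. For Car14 the control eye of mouse 8 was lowest, at a log2 CPM of 8.84 with the next control eye at 10.11, a gap of 0.679 of the range. For Atp1b1 the same eye was lowest, at a log2 CPM of 7.75 with the next at 8.92, a gap of 0.594 of the range. The counts behind these values were 8048 and 3788, and the same eye had the lowest summed RPE markers of the control eyes.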

How the results depend on the processing

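Over 263 recomputed values, 223 kept their direction and side of the threshold, or stayed within 1.5 times a count. For the other 40 the cause was not tested, unless stated. Without the block for the mouse pairing, Best1 passed at 0.93 (adjusted p = 0.0338) and 2 of the 10 genes passed; no other call among the 10 changed. DESeq2 gave 0.96 for Best1 and -0.84 for Kcnj13, with 3 of the 10, 11 transport genes and 1478 genes in all called; voom with sample weights gave 0.89 and -0.94, with 3, 12 and 1426. At least 10 counts in every library gave 0.95 for Best1 and 2 of the 10. The photoreceptor covariate, which moves with the treatment, gave 1.20 for Cftr, 0.32 for Kcnj13, -1.56 for Aqp1, 0.33 for Trpm3, 0.66 for Best1, -1.12 for Clcn2, -1.30 for Slc12a2, -1.15 for Slc4a5, -0.14 for Car14 and 0.42 for Atp1b1, with 0 of the 10, 0 transport genes and 18 genes in all called. Scaling by RPE markers, which moved the median of all genes by 0.63, gave 1.6 for Best1, 0.70 for Atp1b1, 0.20 for Clcn2, 0.24 for Slc12a2, 0.41 for Slc4a5, 0.29 for Car14, 0.45 for Trpm3, 1.23 for Aqp1, 2.09 for Cftr and -0.21 for Kcnj13, with 3 of the 10, 21 transport genes and 4731 genes in all. Leaving out mice 6 and 8, chosen after seeing the data, gave -1.14 for Kcnj13, 0.043 for Slc4a5 and -0.04 for Atp1b1, with 2 of the 10 and 10 transport genes; filterByExpr given the blocked design, also added, changed no call among the 10. With each mouse left out in turn, the estimates ran from 0.86 to 1.06 for Best1 (passing without mouse 6), -0.98 to -0.69 for Kcnj13, 1.37 to 1.55 for Cftr, -0.031 to 0.23 for Atp1b1 (below 0 without mouse 8), 0.45 to 0.92 for Aqp1 (highest without mouse 6), -0.53 to -0.27 for Clcn2 (nearest 0 without mouse 6), -0.48 to -0.26 for Slc12a2, -0.37 to -0.057 for Slc4a5 (lowest without mouse 2, nearest 0 without mouse 6), -0.45 to -0.23 for Car14 and -0.26 to -0.069 for Trpm3 (nearest 0 without mouse 1), with 1 to 2 of the 10, 3 to 9 transport genes and 540 to 1046 genes in all called; without mouse 6 transport calls were 9. Among the 10 genes depth limits Best1 and Cftr most, at as few as 17 and 18 counts in a library, and the related Slc26a1 had as few as 1.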
